A study of Mus musculus with 35 samples.

Results

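Small leucine-rich proteoglycans (SLRPs) were followed through 35 RNA-seq libraries of mouse skin wounds. The 7 genes Dcn, Bgn, Fmod, Lum, Ogn, Aspn and Prelp were taken by gene symbol, out of 22830 symbols in each of the tables of counts, and all 7 were measured in every library. The study asked how loss of type V collagen from fibroblasts changes wound repair. Col5a1CKO mice carried Col1a2CreERT and Col5a1 fl/fl, so that tamoxifen deletes Col5a1 in cells that use the Col1a2 promoter, and WT mice were Col5a1 fl/fl littermates without Cre. Both genotypes were adult C57BL/6 animals of both sexes and had the same tamoxifen and the same full-thickness dorsal excision. The wounds of day 14 were 7 of WT mice, 7 of Col5a1CKO mice and 3 of Col5a1CKO mice into which WT fibroblasts were injected, and those of day 19 were 3 per genotype. The titles, which were followed here, place the injected fibroblasts in these 3 wounds of day 14, whereas another label field names them for the Col5a1CKO wounds of day 19. A separate experiment with cilengitide, an inhibitor of αv integrins, had 4 wounds each of WT mice given vehicle, Col5a1CKO mice given vehicle and Col5a1CKO mice given cilengitide. The labels place the 8 wounds with vehicle at day 14 and give no day for those with cilengitide, which the study's text places at the same day. Because Cre is driven by the Col1a2 promoter, Col5a1 in other cells of the punch is left intact.

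SLRPs are secreted proteins with a core of leucine-rich repeats that bind collagen fibrils and limit how fibrils grow and fuse. Several of them carry glycosaminoglycan chains, bind growth factors such as TGF-β or, once released from the matrix, signal through Toll-like receptors. In skin they are made mainly by dermal fibroblasts. Dcn (decorin), Bgn (biglycan) and Aspn (asporin) form class I, of which decorin and biglycan carry chondroitin or dermatan sulfate and asporin does not. Lum (lumican), Fmod (fibromodulin) and Prelp form class II, where lumican and fibromodulin can carry keratan sulfate. Ogn (osteoglycin, also called mimecan) belongs to class III.

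The genes lie mostly in neighbouring pairs. On build NCBI37, Dcn (chr10:96942245-96980777, plus strand) and Lum (chr10:97028135-97035337, plus strand) lie 47358 bp apart. Aspn (chr13:49639812-49662926, plus strand) and Ogn (chr13:49703440-49719869, plus strand) lie 40514 bp apart, and Prelp (chr1:135806881-135817991, minus strand) and Fmod (chr1:135933831-135944854, plus strand) lie 115840 bp apart. Bgn (chrX:70728941-70741272, plus strand) has no other member beside it and is X-linked. The 3 promoters below are of Bgn, the class I gene that was called at day 14, and of Ogn and Aspn, the chromosome 13 neighbours, and each covers the 250 bases before the gene's start in RefSeq on build GRCm38.p6, of which 5 of the 7 genes had an entry. Capitals mark exact matches, on either strand, to any of 6 strings that were searched. TATAAA is the core of the TATA box, while TGACTCA is known as the site of AP-1. The SMAD proteins bind the string GTCTAGAC, the TEAD factors bind GGAATG, and SP1 is known to bind the string GGGCGG. The last of the strings was the box named CCAAT.
Bgn promoter (chrX:73483351-73483600, + strand): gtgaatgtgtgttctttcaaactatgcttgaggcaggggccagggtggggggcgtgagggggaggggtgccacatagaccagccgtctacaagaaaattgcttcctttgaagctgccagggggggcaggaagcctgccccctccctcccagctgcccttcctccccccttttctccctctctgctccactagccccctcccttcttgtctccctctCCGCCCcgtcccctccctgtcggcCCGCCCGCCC
Ogn promoter (chr13:49607765-49608014, + strand): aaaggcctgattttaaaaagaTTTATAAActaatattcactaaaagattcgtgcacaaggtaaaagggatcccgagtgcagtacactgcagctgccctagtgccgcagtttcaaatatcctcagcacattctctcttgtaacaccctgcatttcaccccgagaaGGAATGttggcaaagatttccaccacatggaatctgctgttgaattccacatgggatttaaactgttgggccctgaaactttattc
Aspn promoter (chr13:49544193-49544442, + strand): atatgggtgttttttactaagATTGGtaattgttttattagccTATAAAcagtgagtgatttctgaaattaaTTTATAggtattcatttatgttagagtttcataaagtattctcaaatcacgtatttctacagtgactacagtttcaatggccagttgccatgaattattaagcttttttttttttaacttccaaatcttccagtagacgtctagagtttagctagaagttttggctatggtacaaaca
The Bgn window had a GC content of 64.4% and 3 matches to the SP1 string on the minus strand, the first of which began 34 bases before the start and the last 6 bases before it. The Ogn window had a GC content of 42.0%, with overlapping TATAAA matches on both strands that began 227 and 229 bases before the start and a GGAATG match that began 86 bases before it. The Aspn window had a GC content of 30.0%, with TATAAA matches that began 207 and 178 bases before the start and a CCAAT match on the minus strand at 229. Among all 32851 promoter windows of this length, 32.7% held the SP1 string, 12.4% TATAAA, 12.6% GGAATG and 33.85% CCAAT. AP-1 and SMAD strings, held by 4.46% and 0.167% of all windows, had no match in any of the 5 windows.

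The first table of counts, which holds the day 14 and day 19 wounds, had 15043531 to 35700337 counts per library, and the cilengitide table had 51211600 to 68266760. The 23 libraries of the first table fell into 2 sets by the log2 difference between GC-rich and GC-poor genes, which was -2.34 to -1.2 in the lower set of 9 libraries and 0.34 to 1.0 in the upper set of 14. The lower set held WT libraries a to d and Col5a1CKO libraries a to e of day 14. In the upper set were every wound of day 19, the 3 fibroblast-treated wounds, and from day 14 the WT libraries e to g with Col5a1CKO libraries f and g. These sets were defined from the counts and are not groups of the study. In the upper set at day 14, all 3 WT libraries had RNA of the Y-linked Ddx3y, while both Col5a1CKO libraries and all 3 fibroblast-treated libraries had Xist instead, so sex and group could not be told apart there. Col5a1, the targeted gene, ranged over 346.6 to 2386 CPM (counts scaled to the same library total) in WT wounds of day 14, against 170.0 to 663.3 CPM for the Col5a1CKO genotype, with overlapping ranges. With vehicle these ranges were 448.7 to 2657 and 252.2 to 1319 CPM. Fibroblast, keratinocyte and leukocyte markers were detected in every group. Bulk RNA cannot tell fewer SLRP-expressing cells from less SLRP RNA per cell.

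Dcn, Lum, Aspn and Bgn were the abundant SLRPs of the wounds, and Fmod and Prelp were the scarce ones. Levels are given as RPKM, CPM after TMM normalization (edgeR's scaling between libraries) per kilobase of the counted transcript, so that genes of different length can be set side by side. Dcn and Aspn are each counted on 2 nearly identical transcript rows, of which 1 was used. In WT wounds of day 14 the medians were 1720 RPKM for Dcn, 1343 for Lum, 1156 for Aspn, 349.8 for Ogn, 268.4 for Bgn, 10.2 for Fmod and 9.20 for Prelp. Aspn exceeded Ogn and Bgn exceeded Fmod in all 7 of these libraries, but Dcn exceeded Lum in 5 of 7, Lum exceeded Aspn in 3 of 7 and Ogn exceeded Bgn in 2 of 7, so those neighbours in the order did not separate. In the Col5a1CKO wounds of day 14 Dcn exceeded Lum in all 7 libraries, and Bgn (median 908.3 RPKM) stood above Aspn (738.3 RPKM) in the order, although in only 3 of 7 libraries. In the Col5a1CKO wounds of day 19 Bgn was the most abundant member, with a median of 1564 RPKM against 869.9 RPKM for Dcn, and exceeded Dcn in all 3 libraries. Between groups of the first table, the medians of Bgn ran from 1564 RPKM in Col5a1CKO wounds of day 19 through 908.3 in Col5a1CKO wounds of day 14, 585.9 with WT fibroblasts and 521.8 in WT wounds of day 19 to 268.4 in WT wounds of day 14, and every pair of neighbours in that order overlapped.

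**Figure D1:**
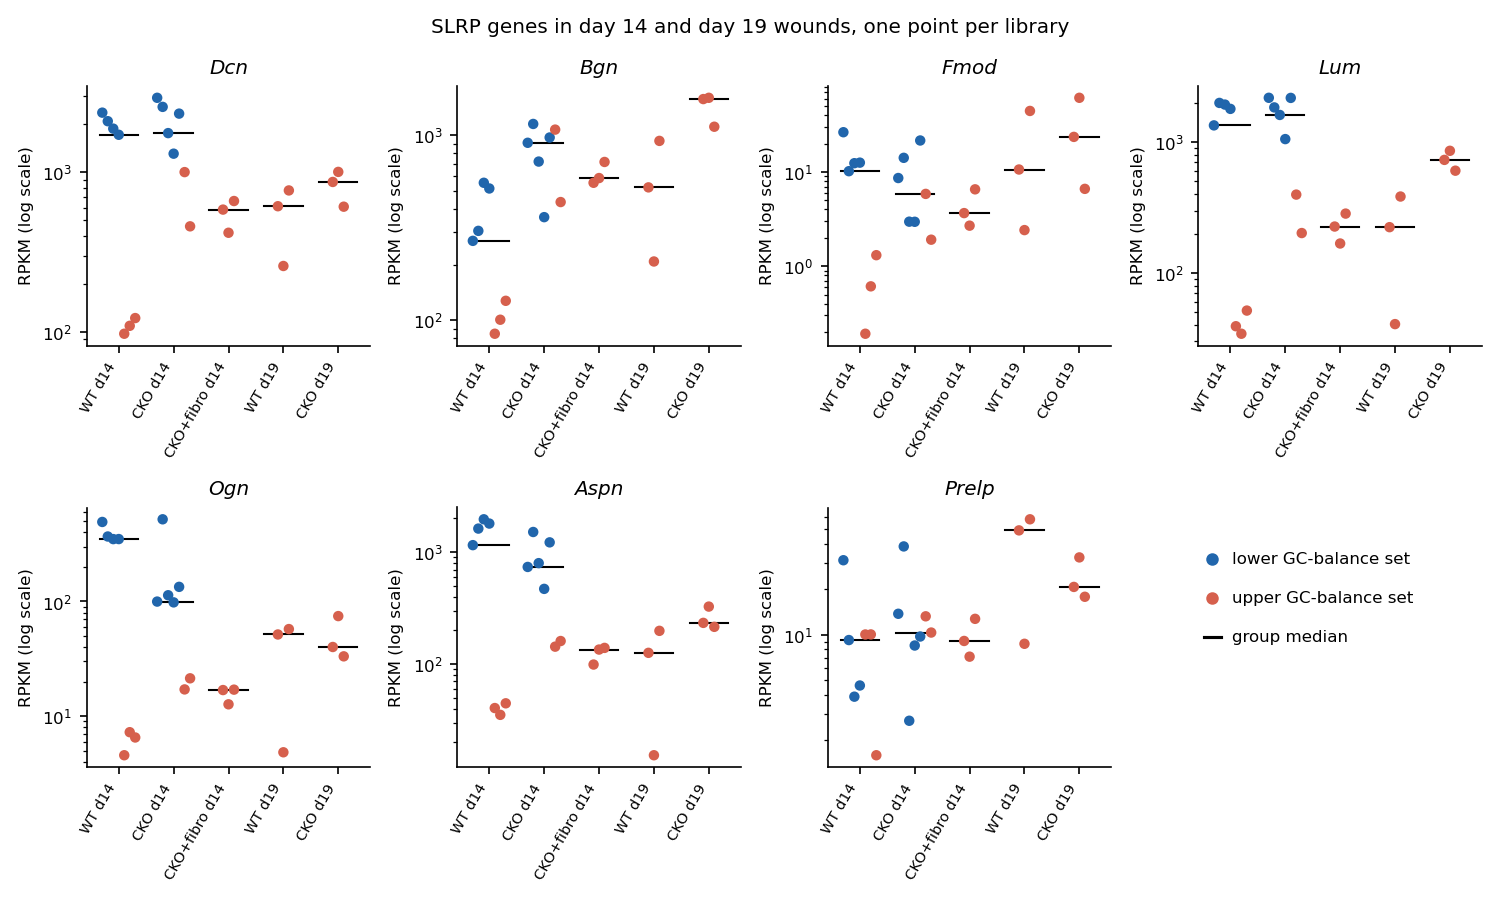
RPKM on a log axis of the 7 SLRP genes in each library of day 14 and day 19, with a point per library coloured by the lower or upper set of GC balance and a line at the group median. In WT wounds of day 14, the 3 upper-set libraries lie far below the 4 lower-set libraries for Dcn, Lum, Ogn and Aspn, at 97.0 to 121.7 RPKM of Dcn against 1720 to 2368 RPKM.

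The SLRPs lay far apart between the sets of libraries within the same group. In WT wounds of day 14, Ogn, which shapes collagen fibrils, was at 349.8 to 493.6 RPKM in libraries a to d and at 4.56 to 7.24 RPKM in libraries e to g. Aspn, an inhibitor of TGF-β, was at 1156 to 1967 RPKM in a to d and 35.3 to 44.7 RPKM in e to g. The ranges were separate for both genes. On the log2 scale the mean of the lower set exceeded that of the upper set by 6.01 for Ogn, 5.41 for Lum, 5.33 for Aspn, 4.74 for Fmod and 4.20 for Dcn, but by 1.92 for Bgn and 0.64 for Prelp. Among Col5a1CKO wounds of day 14 the order was similar and the differences smaller, at 2.98 for Ogn, 2.60 for Lum, 2.53 for Aspn, 1.63 for Dcn, 1.16 for Fmod, 0.166 for Bgn and -0.18 for Prelp. Longest transcripts of Aspn (GC content 34.4%), Ogn (36.3%), Lum (42.0%) and Dcn (42.4%) are poor in GC, against 52.3% for Bgn, 53.7% for Fmod, 53.8% for Prelp and a median of 50.4% over expressed genes. The collagen genes Col1a1 (58.9%) and Col3a1 (52.5%) differed between the sets by 1.91 and 2.93 in WT wounds. Of the WT libraries, 2 of the lower set had Ddx3y and 2 had Xist, while all 3 of the upper set had Ddx3y. Of the Col5a1CKO libraries, 4 of the lower set had Ddx3y and 1 had Xist, while the 2 of the upper set had Xist. The part of sex in the differences was not tested. The summed fibroblast markers of the WT wounds were at 44610 to 77750 CPM in the lower and 8366 to 9606 CPM in the upper set, and the summed keratinocyte markers at 30060 to 33430 and 99440 to 152400 CPM. The part of transcript GC and of these markers in the differences was not tested. The comparisons of 2 groups that mix the sets are also given within a set for the members.

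**Figure D2:**
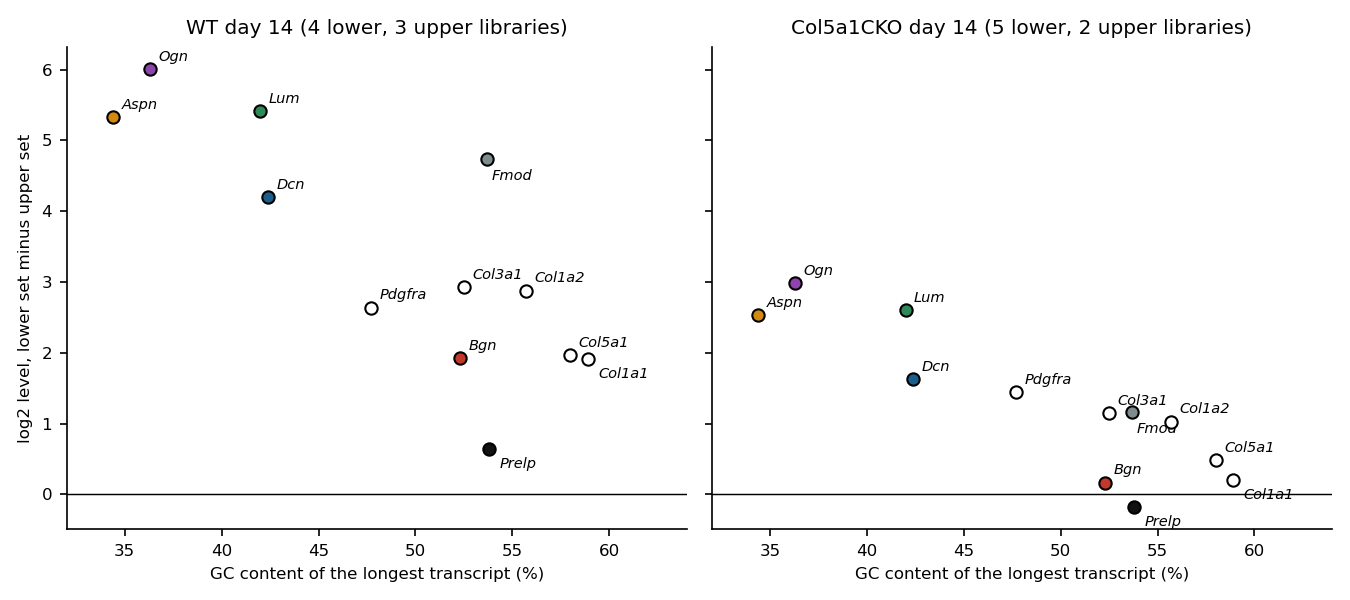
Difference in mean log2 level between the lower and the upper set of libraries (y axis) against the GC content of the longest transcript in percent (x axis), in WT (left) and Col5a1CKO (right) wounds of day 14, with SLRP genes filled and 5 fibroblast genes open. Ogn, Lum and Aspn have the largest differences in both genotypes, 5.33 to 6.01 in WT, and Prelp the smallest.

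Bgn rose in Col5a1CKO wounds at day 14 when all 14 libraries were compared, and the other 6 members did not pass the test. Biglycan RNA was at 84.6 RPKM in the lowest WT library, with a median of 268.4 and a highest value of 552.5 RPKM, and at 360.4, 908.3 and 1148 RPKM (lowest, median and highest) in Col5a1CKO wounds. The groups overlapped through WT c and d, at 552.5 and 514.7 RPKM, and Col5a1CKO d and g, at 360.4 and 434.8 RPKM. The log2 fold change was 1.52 (SE 0.47, adjusted p = 0.049 by the quasi-likelihood test of edgeR, Benjamini-Hochberg over the 14367 genes tested), a 2.87-fold difference. This is 1 of 7 members, where 5.57% of all genes tested were called higher at the same adjusted p under 0.05 and 2-fold. A 3-fold threshold, the libraries of the lower set alone and the replicate letter as a block (adjusted p = 0.0607 from edgeR) ended this call. Scaling by RLE or by library size alone, DESeq2 and the library set as a covariate kept it, the last with a log2 fold change of 1.66 (SE 0.38, adjusted p = 0.00803). The log2 fold changes of the members that were not called were 0.53 for Dcn, 0.36 for Lum and 0.43 for Prelp, and -0.70 for Ogn, -0.43 for Aspn and -0.17 for Fmod, with SEs of 0.61 to 1.02. The median over the 7 was 0.36, against -0.03 over all genes tested.

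Within each set the members gave different pictures. Within the lower set, with 4 WT and 5 Col5a1CKO libraries, 0 of 7 members were called, where 6.6% of all genes were called in either direction. Bgn had a log2 fold change of 0.99 (SE 0.34, adjusted p = 0.0891 from edgeR) there, Dcn 0.09 (SE 0.24), Lum -0.01 (SE 0.23), Aspn -0.81 (SE 0.31, adjusted p = 0.125) and Ogn -1.05 (SE 0.51, adjusted p = 0.219). In that set Ogn was at 98.2 to 134.1 RPKM in 4 of the Col5a1CKO libraries and at 520.7 RPKM in the other, library b, against 349.8 to 493.6 RPKM in WT. Within the upper set, with 3 WT and 2 Col5a1CKO libraries, 5 of 7 members were called higher, where 8.81% of all genes were. These were Bgn (log2 fold change 2.95, SE 0.50), Lum (2.94, SE 0.39), Dcn (2.84, SE 0.42), Aspn (2.01, SE 0.19) and Ogn (1.75, SE 0.25), with edgeR adjusted p-values of 0.037 to 0.0415, and Fmod (2.55, SE 0.91) and Prelp (0.81, SE 0.79) were not called. Dcn was at 97.0, 108.8 and 121.7 RPKM in WT e to g and at 1003 and 458.1 RPKM in Col5a1CKO f and g. These ranges did not overlap, and the share of all genes that separated so was not counted. Whether the genotype difference itself differs between the sets was not tested, and in the upper set sex cannot be told apart from genotype. Over all libraries of day 14, summed markers of keratinocytes spanned 30060 to 152400 CPM for WT against 30.5 to 57010 CPM for Col5a1CKO, those of fibroblasts 8366 to 77750 against 31400 to 122700 CPM and those of leukocytes 126.8 to 327.8 against 394.5 to 1828 CPM, and their part in the result was not tested.

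At day 19, 0 of 7 members were called between the genotypes, where 0.0198% of all genes were called in either direction, with 3 libraries per group (edgeR; 1786 genes were higher and 1866 lower at an unadjusted p under 0.05). DESeq2 called 0 members as well, with 708 genes higher and 782 lower of 18957, and without WT library 2c edgeR called 412 genes higher and 600 lower but again 0 members. The groups did not overlap for 3 of 7 members, where 34.9% of all genes did not overlap in either direction, so this count was near the background. Bgn was at 521.8, 207.7 and 930.0 RPKM in WT and 1564, 1589 and 1109 RPKM in Col5a1CKO wounds, with a log2 fold change of 1.40 (SE 0.65, adjusted p = 0.239 from edgeR). Lum, which spaces collagen fibrils, was at 223.7, 40.6 and 383.7 RPKM in WT and at 731.5, 858.4 and 604.8 RPKM in Col5a1CKO wounds, with a log2 fold change of 1.79 (SE 0.81, adjusted p = 0.233 from edgeR). Aspn was at 126.2, 15.4 and 198.4 RPKM in WT and at 233.7, 326.7 and 215.4 RPKM in Col5a1CKO wounds, with a log2 fold change of 1.21 (SE 0.86, adjusted p = 0.397 from edgeR). In all 3 genes the WT library 2b was the lowest of the 6. Log2 fold changes were 0.64 for Dcn, 0.70 for Fmod and 0.41 for Ogn, and -0.67 for Prelp, the gene of a basement membrane-anchoring SLRP, and their ranges overlapped. The change of the genotype difference from day 14 to day 19, tested as an interaction, gave 0 of 7 members called and 0.0% of all genes (448 genes higher and 491 lower at an unadjusted p under 0.05 in edgeR, and 24 higher and 19 lower called by DESeq2). Its values for the members ran from -1.13 (SE 1.08) for Prelp to 1.63 (SE 1.55) for Aspn. That fit leaves out the library sets, which are mixed at day 14 only. With the set as a covariate 0 of 7 members were called too, 41 genes were called higher and 3 lower, and the median over the members went from 0.84 to 0.24.

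Injection of WT fibroblasts into Col5a1CKO wounds gave no called member at day 14 against Col5a1CKO wounds without them, and 0.0% of all genes were called by edgeR (201 higher and 1800 lower at an unadjusted p under 0.05, and 9 higher and 10 lower called by DESeq2, among them Lum). All 7 log2 fold changes were below 0 over all libraries, from -0.39 (SE 0.39) for Bgn to -3.22 (SE 1.06, adjusted p = 0.365 from edgeR) for Ogn, and the groups did not overlap for 2 of 7 members, Ogn and Aspn, where 2.06% of all genes did not. For Ogn the gap was between 17.02 and 17.1 RPKM. All 3 treated libraries, though, belong to the upper set. Within that set, Dcn was at 583.5, 417.5 and 660.4 RPKM with fibroblasts and 1003 and 458.1 RPKM without, and Ogn at 16.9, 12.7 and 17.0 RPKM with and 17.1 and 21.4 RPKM without. Aspn was at 99.2, 135.0 and 139.7 RPKM with and 143.3 and 160.9 RPKM without. Ogn and Aspn were thus lower in every treated library than in both untreated ones, by little. How many of all genes separated so within the set was not counted, so this is only a description. The log2 fold changes within the set ran from -0.35 (SE 0.43) for Lum to 0.20 (SE 0.64) for Fmod, with edgeR adjusted p-values of 1.0 for each member.

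Against WT wounds of day 14, the fibroblast-treated Col5a1CKO wounds had 0 of 7 members called over all libraries, where 5.84% of all genes were called in either direction, and 6 of 7 members called higher within the upper set, where 19.8% of all genes were called higher. In that set, with 3 libraries per group, Bgn was at 84.6, 100.7 and 127.4 RPKM in WT and 552.5, 585.9 and 715.7 RPKM in treated wounds (log2 fold change 2.71, SE 0.23, adjusted p = 0.000365 from edgeR). Lum was at 39.1, 34.3 and 51.5 RPKM in WT and 226.2, 167.8 and 284.1 RPKM in treated wounds (2.59, SE 0.27, adjusted p = 0.000571 from edgeR). Both genes were thus higher in every treated library than in any WT library of the set, and the share of all genes that separated so was not counted. All 3 WT libraries of the set had Ddx3y and all 3 treated libraries had Xist, so sex cannot be told apart from group here. Dcn (2.49, SE 0.24), Fmod (2.75, SE 0.70), Aspn (1.78, SE 0.18) and Ogn (1.49, SE 0.22) rose as well, and Prelp had a log2 fold change of 0.57 (SE 0.67). Over all libraries, by contrast, the sign was negative for Dcn (-1.01), Lum (-2.08), Ogn (-3.76), Aspn (-2.83) and Fmod (-0.97), and that comparison includes WT libraries a to d of the lower set. Other cell markers moved with this result. Summed fibroblast markers were at 36110 to 46660 CPM in treated wounds against 8366 to 9606 CPM in WT e to g, leukocyte markers at 988.4 to 1355 against 126.8 to 159.1 CPM and keratinocyte markers at 11190 to 27510 against 99440 to 152400 CPM, and their part was not tested. This comparison and the genotype comparison of the upper set share their 3 WT libraries.

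From day 14 to day 19, SLRP RNA rose in WT wounds in the fit with the library set as a covariate, where 5 of 7 members were called higher and 5.47% of all genes were. Fmod, which promotes fibril assembly and binds TGF-β, had the largest log2 fold change of the 7, 4.94 (SE 1.08, adjusted p = 0.0120 from edgeR), and 3.32 (SE 0.83, adjusted p = 0.0366) without library 2c of day 19. Its 3 upper-set libraries of day 14 were at 0.192, 0.612 and 1.31 RPKM and the day 19 libraries at 10.6, 2.42 and 44.5 RPKM. Every day 19 value thus lay above every upper-set value of day 14, and the share of all genes that separated so was not counted. Dcn was at 97.0, 108.8 and 121.7 RPKM in the upper-set libraries of day 14 and at 612.6, 258.3 and 769.6 RPKM at day 19 (log2 fold change 2.48, SE 0.39, adjusted p = 0.00259 from edgeR). Bgn rose by 2.57 (SE 0.52), Ogn by 2.81 (SE 0.70) and Lum by 2.55 (SE 0.64) on the log2 scale, while Aspn (1.67, SE 0.68, adjusted p = 0.125 from edgeR) and Prelp (2.59, SE 1.0, adjusted p = 0.109) did not pass. With all groups fitted together, Dcn (adjusted p = 0.0867), Lum (0.166) and Ogn (0.142) lost their calls, and without library 2a or 2c Lum and Ogn lost theirs (adjusted p = 0.0546 to 0.0781, all from edgeR). Library 2b stood lowest at day 19 for all 7 genes, at 40.6 RPKM of Lum and 4.84 RPKM of Ogn, close to the upper-set WT libraries of day 14. Without the set as a covariate 0 members were called, and Dcn, Lum, Ogn and Aspn had negative log2 fold changes, from -1.13 to -3.06, while among the upper-set libraries alone Dcn, Bgn and Fmod were called, where 14.2% of all genes were called higher, and Lum (adjusted p = 0.0502) and Ogn (adjusted p = 0.0517) were not. All 9 fibroblast markers were called higher, and 3 of 5 keratinocyte markers lower, in the same fit, and their part in the result was not tested. Sex was uneven between the days as well. The 3 upper-set WT libraries of day 14 had Ddx3y, while at day 19 1 had Ddx3y and 2 had Xist. The part of sex was not tested.

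In Col5a1CKO wounds, 0 of 7 members were called between day 19 and day 14, where 1.8% of all genes were called in either direction. All 7 log2 fold changes were above 0, from 0.17 (SE 0.45) for Dcn to 2.95 (SE 1.23, adjusted p = 0.226 from edgeR) for Fmod. Lum, at 397.0 and 201.7 RPKM in the upper-set libraries of day 14 and 731.5, 858.4 and 604.8 RPKM at day 19, had 1.27 (SE 0.42, adjusted p = 0.137 from edgeR). Its day 19 libraries all lay above the upper-set libraries of day 14, yet below each of the lower-set libraries, at 1055 to 2183 RPKM. DESeq2 called both Lum and Fmod here. Within the upper set edgeR called 0 of 7 members and 0 of 15240 genes, with 1885 higher and 1746 lower at an unadjusted p under 0.05, and gave 3.0 (SE 1.18) for Fmod and 1.33 (SE 0.43, adjusted p = 0.170) for Lum. The interaction above called 0 members, so a difference between the genotypes in their change over time was not shown.

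**Figure D3:**
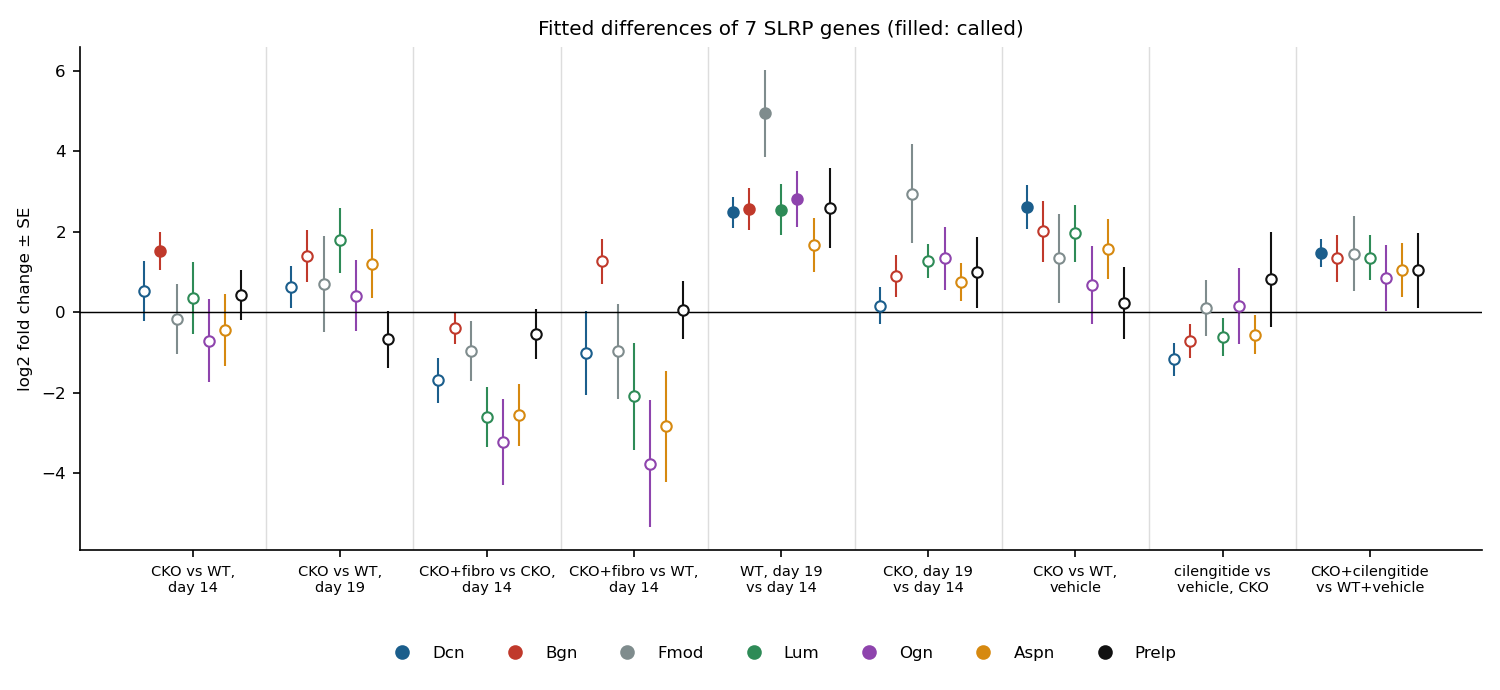
Log2 fold change with its standard error (y axis) of the 7 SLRP genes in 9 comparisons (x axis), from the edgeR fits over all libraries of both groups, with the library set as a covariate in the comparisons of days, and filled points where a gene was called. Filled points are Bgn in Col5a1CKO against WT at day 14, 5 genes in WT between the days, and Dcn in both comparisons of Col5a1CKO with WT in the cilengitide experiment.

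In the cilengitide experiment, Dcn rose in Col5a1CKO wounds with vehicle against WT wounds with vehicle. The GC balance of the libraries also separated these groups, at -0.54 to -0.25 in Col5a1CKO and -0.04 to 0.12 in WT wounds with vehicle (-0.2 to 0.09 with cilengitide), and its part in the results was not tested. Decorin RNA was at 353.6, 336.9, 213.9 and 114.1 RPKM in WT and at 1975, 1693, 2051 and 567.7 RPKM in Col5a1CKO wounds, so the lowest Col5a1CKO library was above the highest WT library. How many of all genes separated so was not counted. The log2 fold change was 2.62 (SE 0.55, adjusted p = 0.00646 from edgeR), a 6.13-fold difference. This was 1 of 7 members, where 17.5% of all genes were called higher. Bgn was at 445.6, 456.7, 92.4 and 78.9 RPKM in WT and 1649, 1423, 894.2 and 402.7 RPKM in Col5a1CKO wounds (2.01, SE 0.75, adjusted p = 0.0563 from edgeR). Lum was at 313.7, 185.9, 86.7 and 41.9 RPKM in WT and 748.3, 1023, 462.5 and 215.3 RPKM in Col5a1CKO wounds (1.96, SE 0.71, adjusted p = 0.0525 from edgeR). Both overlapped only through Col5a1CKO library 4, the lowest of its group for Dcn, Bgn, Fmod, Lum and Aspn, and without that library both were called (adjusted p = 0.0349 and 0.0302 from edgeR). Aspn (1.58, SE 0.75), Fmod (1.34, SE 1.10), Ogn (0.68, SE 0.97) and Prelp (0.23, SE 0.90) were not called. Library 2 of the Col5a1CKO wounds, with 113.0 RPKM of Ogn and 25.6 RPKM of Prelp against 7.85 to 19.3 and 1.87 to 3.81 RPKM in the others of its group, carried the positive sign of both, which were -0.78 and -1.44 without it. The median over the 7 members was 1.58, against 0.02 over all genes tested. The second Col5a1CKO library had neither Xist nor Ddx3y RNA above 10 CPM, and the other 3 had Ddx3y, against 2 of 4 in WT. Keratinocyte markers summed to 58810 to 96140 CPM for WT with vehicle, 56.9 to 11020 CPM for Col5a1CKO with vehicle and 31480 to 66290 CPM with cilengitide, leukocyte markers to 98.0 to 184.4, 894.3 to 3660 and 321.7 to 838.2 CPM and fibroblast markers to 9797 to 55350, 22740 to 110500 and 38910 to 76520 CPM, and their part in the results of this experiment was not tested.

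Cilengitide gave no called member against vehicle in Col5a1CKO wounds, where 13.1% of all genes were called in either direction. Dcn was at 564.0, 639.8, 925.1 and 681.5 RPKM with cilengitide, against 1975, 1693, 2051 and 567.7 RPKM with vehicle, so that 3 of 4 vehicle libraries lay above every cilengitide library. Its log2 fold change was -1.17 (SE 0.42, adjusted p = 0.0739 from edgeR). Without each of 7 of the 8 libraries in turn, the adjusted p-values were 0.109 to 0.198 from edgeR. Without the other, vehicle library 4, the library with the lowest Dcn of its group, it was -1.45 (SE 0.23, adjusted p = 0.00498 from edgeR) and Dcn was called, as it was over all libraries with DESeq2 (adjusted p = 0.0175). Bgn, at 554.7, 596.7, 787.8 and 755.7 RPKM with cilengitide, had -0.71 (SE 0.43, adjusted p = 0.250 from edgeR), and Lum -0.62 (SE 0.47) and Aspn -0.55 (SE 0.49). Fmod (0.11, SE 0.70), Ogn (0.16, SE 0.94) and Prelp (0.82, SE 1.18) had positive values within their errors. Within the cilengitide group, libraries 2 and 3 had 54.6 and 91.0 RPKM of Ogn and 24.9 and 30.6 RPKM of Prelp, and libraries 1 and 4 had 13.7 and 16.3 RPKM of Ogn and 2.29 and 1.77 RPKM of Prelp. Libraries 2 and 3 had Xist and libraries 1 and 4 had Ddx3y, and the part of sex in this was not tested.

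Against WT wounds with vehicle, Dcn was still higher in Col5a1CKO wounds with cilengitide. Its lowest value with cilengitide, 564.0 RPKM, was above the highest WT value, 353.6 RPKM, and the log2 fold change was 1.47 (SE 0.34, adjusted p = 0.0274 from edgeR), a 2.78-fold difference. This was again 1 of 7 members, where 5.15% of all genes were called higher. The call was lost without WT library 3 (adjusted p = 0.0728), without cilengitide library 2 (0.0595), 3 (0.0718) or 4 (0.0650), and with all groups fitted together (0.0677, all from edgeR). Over all genes, 799 were called higher and 532 lower with every library. Without WT library 3 these were 87 and 196. Without cilengitide library 2, 3 or 4, 3, 1 and 1 genes were called higher and 0 lower. The groups did not overlap for 2 of 7 members, Dcn and Bgn, where 29.9% of all genes did not, so this count was near the background. Bgn was at 554.7 to 787.8 against 78.9 to 456.7 RPKM, with a log2 fold change of 1.34 (SE 0.59, adjusted p = 0.130 from edgeR). The other members had log2 fold changes of 0.85 to 1.46, and the median over the 7 was 1.34 against -0.01 over all genes. This comparison and that of the vehicle groups share their 4 WT libraries.

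**Figure D4:**
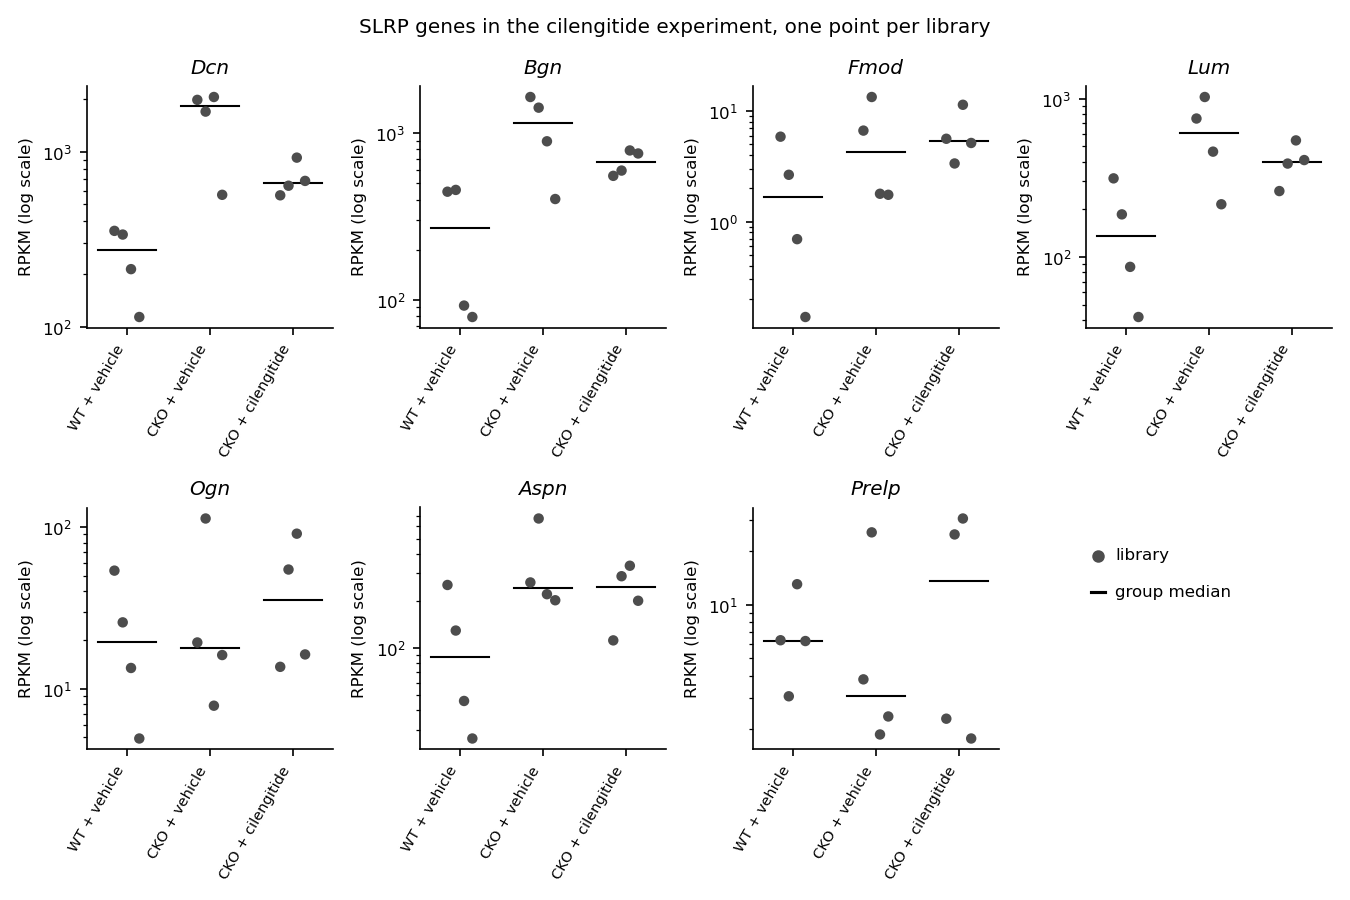
RPKM on a log axis of the 7 SLRP genes in each library of the cilengitide experiment, with a point per library and a line at the group median. Dcn is at 114.1 to 353.6 RPKM in WT with vehicle, 567.7 to 2051 RPKM in Col5a1CKO with vehicle and 564.0 to 925.1 RPKM in Col5a1CKO with cilengitide.

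Set against Col1a1, the main fibrillar collagen gene, Bgn had the highest share in Col5a1CKO wounds with vehicle among the 3 groups of the cilengitide experiment. Per length, Bgn was at 25.2% to 33.4% of Col1a1 in the 4 Col5a1CKO wounds with vehicle, 13.3% to 14.7% in 4 of WT and 14.8% to 22.9% in 4 given cilengitide. These 3 ranges did not overlap, although WT and cilengitide lay as close as 14.72% and 14.81%. At day 19 Bgn was at 10.2% to 20.1% of Col1a1 in WT and, within that range, at 12.1% to 13.4% in Col5a1CKO wounds, and Dcn was at 6.65% to 8.49% for Col5a1CKO, reaching just into the WT range of 8.47% to 24.98%. At day 14, Bgn was at 14.5% to 24.4% of Col1a1 in WT and 19.7% to 24.96% in Col5a1CKO wounds with overlap, while Dcn was at 17.4% to 215.1% and 20.7% to 77.5%. Dcn in the cilengitide experiment was at 10.7% to 31.4% of Col1a1 in WT, 30.0% to 61.1% in Col5a1CKO wounds with vehicle and 15.9% to 22.3% with cilengitide, and the WT range overlapped both others. The ratio to Col1a1 is a description and was not tested.

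The balance among the SLRPs was tested with the ratios of Bgn to Dcn, the class I pair, and of Fmod to Lum, a class II pair that shares collagen binding sites, in 9 comparisons each. None of the 18 tests passed after Benjamini-Hochberg adjustment (lowest adjusted p = 0.200, 2-sided exact permutation tests). With 3 libraries against 3 the smallest possible p was 0.1, so those tests could not pass. With 3 against 2 they could not either, as the ratio of Bgn to Dcn in Col5a1CKO wounds between the days had separate ranges and exact p = 0.2. With 4 against 4 it was 0.0286 before adjustment. At day 19 the ratio of Bgn to Dcn was 1.80, 1.58 and 1.82 in Col5a1CKO wounds and 0.852, 0.804 and 1.21 in WT wounds, a log2 difference of 0.88 (exact p = 0.100, the smallest that 3 against 3 allows, adjusted p = 0.300). With cilengitide it was 0.984, 0.933, 0.852 and 1.11, against 0.835, 0.841, 0.436 and 0.709 with vehicle, a log2 difference of 0.50 (exact p = 0.0286, the smallest that 4 against 4 allows, adjusted p = 0.200). Neither pair of groups overlapped. At day 14 the ratio was 0.113 to 0.299 in lower-set WT libraries and 0.872 to 1.05 in upper-set ones, and the genotypes differed by 0.34 on the log2 scale over all libraries (exact p = 0.526). Within the lower set the difference was 0.90 (exact p = 0.0635) and within the upper set 0.09 (exact p = 0.400). Fmod was 0.0161, 0.0162 and 0.0230 of Lum in fibroblast-treated wounds and 0.00184 to 0.0148 in untreated Col5a1CKO wounds, which did not overlap (log2 difference 1.65, exact p = 0.0167, adjusted p = 0.200). Within the upper set the difference was 0.62 (exact p = 0.200), and the groups did not overlap there either, with 0.0148 and 0.00948 in the untreated libraries.

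**Figure D5:**
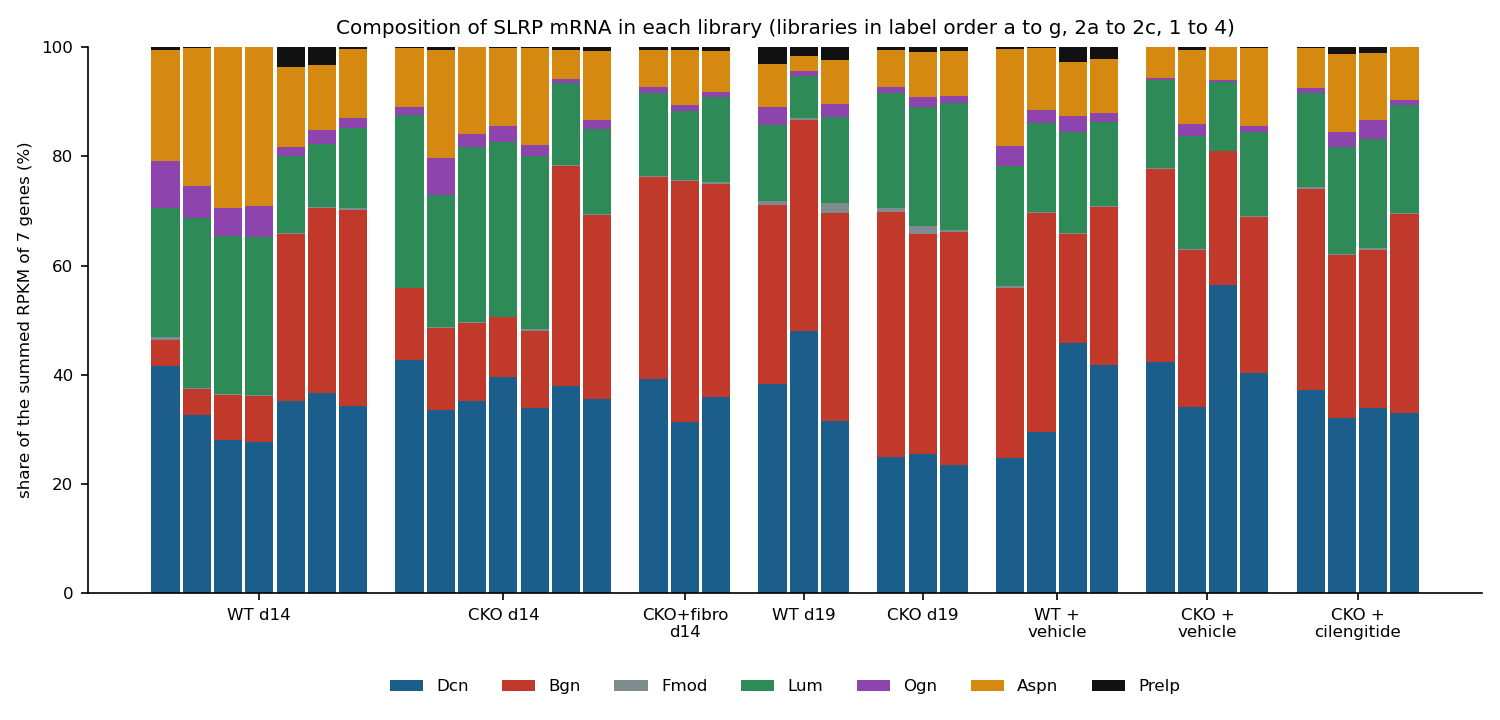
Share of each SLRP in the summed RPKM of the 7 genes in percent (y axis), with a bar per library in the order of the labels within each group (x axis). Bgn takes 4.72% to 8.30% in WT libraries a to d of day 14 and 30.7% to 35.9% in e to g, and 40.25% to 44.9% in Col5a1CKO wounds of day 19, where Dcn takes 23.4% to 25.5%.

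Of 10 other SLRP genes, 7 to 10 were tested in each comparison. Podn (podocan, class V) was the 1 of 7 that rose in Col5a1CKO wounds at day 14, where 5.57% of all genes did (log2 fold change 1.69, SE 0.44, adjusted p = 0.0257 from edgeR). Within the lower set 1 of 7 rose and 2 fell, where 532 of 14472 genes rose and 423 fell. Within the upper set 3 of 8 rose and 1 fell, where 1348 of 15296 genes rose and 63 fell. From day 14 to day 19 in WT wounds 5 of 8 rose in the fit with the library set as a covariate, where 5.47% of all genes did. They were led by Kera (keratocan, 4.27, SE 0.99), Podn (3.37, SE 0.69) and Ecm2 (3.16, SE 0.49), a neighbour of Aspn and Ogn. Over all libraries of each day, the WT medians fell for Kera (42.65 to 13.36 CPM), Omd (77.28 to 10.48 CPM) and Ecm2 (53.48 to 32.2 CPM). They rose for Podn (4.125 to 31.82 CPM) and Tsku (15.56 to 40.11 CPM). In Col5a1CKO wounds with vehicle 3 of 8 rose against WT, where 17.5% of all genes did, Podnl1 (2.61, SE 0.80), Optc (2.49, SE 0.52) and Tsku (1.15, SE 0.29), an inhibitor of several growth factors. Podnl1 was the 1 of 10 that fell with cilengitide, where 1025 of 15563 genes fell (-1.18, SE 0.31, adjusted p = 0.0278 from edgeR). Omd, the class II gene beside Ogn, had -2.20 (SE 1.02, adjusted p = 0.178 from edgeR) between the genotypes at day 14.

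Genes that build SLRP chains or cut SLRPs were followed as lists. Each is read against the share of all genes called higher, 5.57% at day 14, 17.5% with vehicle and 5.47% in WT wounds between the days. The last share and the list counts between the days are from the fit with the library set as a covariate. Within the sets at day 14, 532 of 14472 genes were called higher in the lower and 1348 of 15296 in the upper set. Called lower were 2065 of 15434 genes with vehicle, 1130 of 15180 in WT wounds between the days and 1025 of 15563 with cilengitide. Of 24 tested genes for glycosaminoglycan chains, 6 rose in Col5a1CKO wounds at day 14 (4 within the lower and 9 within the upper set) and 13 rose and 1 fell in the vehicle comparison, with list medians of 0.76 and 1.18, against -0.03 and 0.02 over all genes. In WT wounds between the days 1 of 24 rose and 2 fell. Xylt1, which starts the chains, had 2.92 (SE 0.86) at day 14 and 3.23 (SE 0.44) with vehicle, and the chondroitin enzymes Csgalnact1 (2.55 and 2.90) and Chst11 (2.10 and 3.72) were called in both. With cilengitide against vehicle 4 of 24 fell, among them Xylt1 (-2.07, SE 0.45), Chst11 (-2.05, SE 0.43) and Csgalnact1 (-1.55, SE 0.43). Chst3 was the gene that fell in the vehicle comparison (-1.99, SE 0.47). Of 13 tested proteases that cut SLRPs, 7 rose at day 14 (5 within the lower and 7 within the upper set) and 9 with vehicle, with medians of 1.59 and 2.05, led by Mmp3 (3.61, SE 0.75, and 5.61, SE 0.74). With cilengitide 5 of 13 fell, led by Mmp12 (-3.64, SE 0.85), Mmp3 (-2.54, SE 0.67) and Gzmb (-2.48, SE 0.47).

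Of the receptors and growth factors that SLRPs bind, 8 of 16 rose at day 14, where 5.57% of all genes did (3 within the lower and 8 within the upper set). Of all genes, 532 of 14472 rose and 423 fell within the lower set, and 1348 of 15296 rose within the upper set. In the vehicle comparison 10 of 16 rose and 1 fell, where 17.5% of all genes rose. Tlr2, a receptor for soluble biglycan and decorin, had 2.36 (SE 0.54) and 4.62 (SE 0.57), and fell with cilengitide (-2.43, SE 0.57, adjusted p = 0.0214 from edgeR). Tlr4 had 3.71 (SE 0.50) with vehicle and fell with cilengitide (-2.0, SE 0.44), as did Tgfb1 (-1.22, SE 0.24). Bmp2, a growth factor of bone and hair follicle, fell in Col5a1CKO wounds with vehicle (-1.77, SE 0.25). Of the collagens and other collagen partners, 4 of 18 rose at day 14 (3 rose and 1 fell within the lower set, and 10 rose within the upper set), among them Thbs1 (2.98, SE 0.72) and Col12a1 (2.17, SE 0.63). With the library set as a covariate, 13 of 18 rose between the days in WT wounds, where 5.47% of all genes did. Among these were Col11a1 (4.93, SE 0.54), Eln (4.36, SE 0.71) and Col14a1 (3.62, SE 0.76). At day 19 no gene of these lists was called between the genotypes, where only 3 of 15135 genes were. Medians of the lists were 0.54 to 1.41 on the log2 scale there, against -0.01 over all genes.

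Across the 12 cilengitide libraries, the genes most like each member by Pearson's r of log2(CPM + 1), out of 11637 genes averaging 5 CPM or more were as follows. For Lum they were Fkbp14, a collagen chaperone (r = 0.989), Postn (periostin, 0.989) and Bicc1 (0.984), and for Aspn Postn (0.971), Gulp1 (0.969) and Zfp651 (0.969). Over the 23 other libraries Postn kept r = 0.983 with Lum and 0.928 with Aspn, while Zfp651 had -0.075 with Aspn. For Bgn they were Mxra8 (0.995, and 0.962 over the 23 libraries), Nfatc4 (0.994) and Scarf2 (0.993), and for Dcn Gpc1 (0.984, but -0.437 over the 23 libraries), Parp3 and 9030425E11Rik. For Ogn they were Itm2a (0.977 and 0.960), Abca9 and Cilp, for Fmod Mest (0.951), Mdk and Fbn2, and for Prelp Cd55 (0.983), Nov and Efemp1. Among the members, Lum went with Bgn (0.967), Aspn (0.950) and Dcn (0.921) in the cilengitide libraries, whereas Prelp had r of -0.033 with Bgn and -0.013 with Dcn and 0.695 with Ogn. The libraries share groups, depth and sets, so these values only describe them.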

How the data were processed

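RNA-seq of 35 mouse wounds was used, 23 in a table of counts per RefSeq transcript and 12 in a table of counts per symbol. The authors deposited raw counts. Their methods give Hisat2 alignment to NCBI37/mm9 and SeqMonk counts on RefSeq exons, without saying whether this covers the cilengitide libraries. In the first table the row with most counts was kept per symbol, and rows without a gene name (30 and 1, at most 0.0694% of a library) were left out. Dcn and Aspn each have 2 such rows. RPKM used the lengths of the kept rows for both tables.

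Groups came from the sample titles in the first table and from the treatment and genotype labels in the cilengitide experiment. Each pair of groups was fitted on its own in edgeR 4.0.16 under R 4.3.3, with TMM scaling, genes kept by filterByExpr (minimum count 10) and a robust quasi-likelihood model, and genes were called at an adjusted p under 0.05 and 2-fold. The script was checked on simulated data. DESeq2 1.42.0, other scalings and filters, other thresholds, the library set, the replicate letter and left-out replicates were alternatives. Ratios used exact permutation tests in scipy 1.17.1. The same-letter fit without the block and the list counts within sets were chosen after seeing the data, and members and lists were chosen with earlier results of these data known. Named genes are the 7 members, Col5a1, Col1a1, up to 3 called genes per list and direction, and the 3 genes most alike per member. Other genes named were chosen after their values were seen. Library sets were split at the widest gap, 1.54, in the log2 balance of genes in the upper and lower 10% by GC content, the next gap being 0.39. No library duplicated another (0 pairs with identical counts). Beyond the labels, the study's methods state that each n counts separate biological replicates. The p-values measure the spread between these samples. Totals limit precision only by counting error, small for all but Fmod and Prelp. Unwounded skin was not analysed here.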

Additional observations from a re-analysis of the deposited data

Results flagged for a closer look

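Dcn in the fourth Col5a1CKO library with vehicle stood apart from its group, at 567.7 RPKM against 1690 to 2050 RPKM in the other 3 libraries. Its gap to the next library on the log2 scale was 0.851 of the group's range, above the 95% critical value of 0.829 for 4 libraries. This was 1 of 45 values checked over the groups of 4 and 7 libraries, and chance flags about 1 in 20 such groups.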

How the results depend on the processing

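Among the 7 members and the 2 ratios, the alternatives moved results mainly through the library sets. For Col5a1CKO against WT at day 14, the count of called members went from 1 to 0 with the replicate letter as a block, 0 within the lower set, 5 within the upper set and 0 at 3-fold. The signs of Fmod (0.25), Ogn (0.18) and Aspn (0.49) turned with the block, those of Fmod (0.41) and Aspn (0.16) with the library set as a covariate, that of Lum within the lower set (-0.01) and those of Fmod (2.55), Ogn (1.75) and Aspn (2.01) within the upper set. For WT fibroblasts against none the count went from 0 to 1 with DESeq2, 4 lower with the block and 4 lower in the same replicates without it (letters a to c, all of the lower set in the untreated groups), and Fmod turned to 0.14 with the covariate and 0.20 within the upper set. For fibroblast-treated wounds against WT the count went from 0 to 1 with DESeq2, 5 with the block, 5 in the same replicates without it, 6 with the covariate and 6 within the upper set. With the covariate Dcn (2.51), Fmod (2.77), Lum (2.61), Ogn (1.51) and Aspn (1.80) turned sign, and within the upper set Dcn (2.49), Fmod (2.75), Lum (2.59), Ogn (1.49) and Aspn (1.78) did, while Prelp turned to -0.03 with DESeq2 and with RLE size factors, -0.07 with all groups in one fit, -0.22 with the block and -0.68 in the same replicates without it.

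For WT wounds between the days the count went from 5 to 2 with all groups in one fit, 0 without the library set and 3 within the upper set, and without the set Dcn (-1.13), Lum (-2.24), Ogn (-2.56) and Aspn (-3.06) turned sign. In Col5a1CKO wounds it went from 0 to 2 with DESeq2 and 2 in one fit, and without the set Dcn (-1.11), Lum (-0.91), Ogn (-1.55) and Aspn (-1.50) turned sign. The count went from 1 to 3 with DESeq2 and 3 in one fit for the vehicle groups, from 0 to 1 with DESeq2 for cilengitide against vehicle, and from 1 to 3 with DESeq2, 0 in one fit and 0 at 3-fold for cilengitide against WT. Dcn in the interaction turned to -0.33 with library size only and -0.41 with the covariate. The Bgn/Dcn ratio between the days in WT wounds was 1.29 over all libraries, against -0.01 in the upper set. No ratio passed its test after adjustment under any alternative run, and tests with at most 3 libraries per group could not pass.

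Leaving out a replicate gave 3 to 6 called members for WT between the days, with 3 without library 2a or 2c and 6 without 2b, 1 to 3 for the vehicle groups, with 3 without WT library 1 or Col5a1CKO library 4, 0 to 1 for cilengitide against vehicle, with 1 without vehicle library 4, and 0 to 2 for cilengitide against WT, with 2 without WT library 1. Log2 fold changes that turned sign then ran from -0.12 to 0.86 for Ogn and -0.32 to 2.28 for Fmod between the genotypes at day 19, -0.24 to 0.21 for Prelp in fibroblast-treated wounds against WT, -1.44 to 0.68 for Prelp and -0.78 to 1.42 for Ogn between the vehicle groups, and -0.46 to 1.59 for Ogn, -0.31 to 0.90 for Fmod and -0.74 to 0.02 for Aspn with cilengitide. The Bgn/Dcn ratio ran from -0.19 to 0.10 between the days in WT wounds and -0.13 to 0.42 for cilengitide against WT, and the Fmod/Lum ratio from -0.73 to 0.11 between the vehicle groups.

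The labels do not say whether the replicate letters pair the wounds, and the check below could not settle it. Same-letter deviations from the group means correlated at -0.462 to 0.572 over the 7 letters of day 14, -0.434 to -0.317 at day 19, -0.195 to 0.413 between treated and untreated Col5a1CKO wounds and 0.018 to 0.391 between treated and WT wounds. In the same order, the best match bore the same letter for 1 of 7, 0 of 3, 1 of 3 and 2 of 3. The letters coincide in part with the library sets. With the letter as a block, the log2 fold change of Bgn at day 14 was 1.75 (adjusted p = 0.0607 from edgeR), 0 members were called at day 19, and the Bgn/Dcn ratio differed by 0.34, 0.88, 1.56 and 2.74 and the Fmod/Lum ratio by -0.79, -1.23, 2.25 and 1.07 in the same 4 comparisons. The cause of the other changes was not tested. Depth limits Fmod in WT libraries most.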
